A study of Mus musculus with 6 samples.

Results

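The 10 genes described here carry glucose into the heart cell and break it down to lactate. They were taken by symbol from the gene IDs of the deposited table, in which all 10 had a row among 18019, and their values were compared between VNS-TAC and Ctrl-TAC hearts. They comprise the glucose transporter genes Slc2a1 and Slc2a4, the hexokinase genes Hk1 and Hk2, and 6 enzymes further down glycolysis, namely Pfkm, Aldoa, Pgk1, Eno3, Pkm and Ldha.

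All mice were wild type (WT) and all had their aortic arch surgically constricted (transverse aortic constriction, TAC), which overloads the left ventricle with pressure. Their hearts were taken 8 weeks later. VNS stands for vagus nerve stimulation. The VNS-TAC mice (n = 3 libraries) had received the virus rAAV-ChAT-hChR2[H134R]-GFP in the dorsal vagal motor nucleus. It carries the light-gated channel ChR2 (H134R) behind the promoter of choline acetyltransferase, so light acts on cholinergic neurones of that nucleus. The Ctrl-TAC mice (n = 3 libraries) had received rAAV-ChAT-GFP, which carries the fluorescent protein alone. No heart without constriction was analysed here, and the sources used here give no strain, age or sex. The VNS-TAC library names carry a frequency in Hz and the Ctrl-TAC names carry none, so the former are taken as stimulated. Whether the Ctrl-TAC mice received light is not stated here, and a treatment tag reads VNS in all samples. The comparison asks how gene expression in the overloaded heart differed between mice with the channel, labelled as stimulated, and mice with the fluorescent protein alone.

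Glucose enters a cardiomyocyte mainly through GLUT4 (Slc2a4), which insulin and contraction bring to the cell surface, and through GLUT1 (Slc2a1), which sits there constitutively. Hexokinase traps glucose as glucose 6-phosphate, phosphofructokinase commits it to glycolysis, and aldolase, phosphoglycerate kinase, enolase and pyruvate kinase carry it to pyruvate, which lactate dehydrogenase can turn into lactate. The adult heart burns mostly fatty acids, and a greater use of glucose is a well-known feature of pressure overload. Many glycolytic genes are known targets of hypoxia-inducible factor, which binds a core of the letters ACGTG in promoters.

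Promoter sequences are shown first, because most of the 10 genes share a sequence feature there. Of the 10 genes, 9 matched a promoter in the RefSeq table of GRCm38.p6, which holds 250 bases before and 50 bases after each start. In 8 of these 9 genes, and in 10 of their 17 promoter windows, the letters ACGTG occurred on one of the strands. Over all windows of the same length the share was 19.6%, and 21.8% of genes had at least 1 such window. The shares are not fully alike, since all 27025 genes had 32851 windows, fewer per gene. Overlapping windows of Aldoa share a match, and GC content was not matched. The palindrome CACGTG contains the motif on both strands, and it was present in a window of Ldha and in one of Pfkm. The consensus site of the muscle factor MEF2, looked for on both strands, occurred in none of the 9 genes and in 4.2% of all genes. A match of letters describes the sequence and does not show that a factor binds there. The windows below run 5′ to 3′ on the strand of the gene, with ACGTG or, on the opposite strand, CACGT in capitals. Hk1, Hk2 and Aldoa are shown because these 3 genes did not overlap between the groups in deposited FPKM. Hk1 is shown with both of its starts, since only one has the motif. Hk2 and Aldoa are shown with a start that has it, and another start of Aldoa has none. Ldha is shown for the 5 matches in its window, in which each of its 2 CACGTG palindromes counts once per strand.
Hk1, chr10:62379859-62380158, minus strand: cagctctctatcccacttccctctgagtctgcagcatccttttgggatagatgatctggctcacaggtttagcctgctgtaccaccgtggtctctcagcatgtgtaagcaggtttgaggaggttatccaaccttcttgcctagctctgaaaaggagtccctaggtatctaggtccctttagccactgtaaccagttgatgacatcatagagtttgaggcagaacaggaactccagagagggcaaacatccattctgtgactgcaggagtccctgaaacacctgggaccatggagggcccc
Hk1, chr10:62340372-62340671, minus strand: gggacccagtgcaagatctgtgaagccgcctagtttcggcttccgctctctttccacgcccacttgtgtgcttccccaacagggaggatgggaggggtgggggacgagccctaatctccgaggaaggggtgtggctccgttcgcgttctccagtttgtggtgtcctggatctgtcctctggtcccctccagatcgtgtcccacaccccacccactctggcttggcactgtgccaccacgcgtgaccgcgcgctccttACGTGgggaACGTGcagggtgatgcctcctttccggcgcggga
Hk2, chr6:82774405-82774704, minus strand: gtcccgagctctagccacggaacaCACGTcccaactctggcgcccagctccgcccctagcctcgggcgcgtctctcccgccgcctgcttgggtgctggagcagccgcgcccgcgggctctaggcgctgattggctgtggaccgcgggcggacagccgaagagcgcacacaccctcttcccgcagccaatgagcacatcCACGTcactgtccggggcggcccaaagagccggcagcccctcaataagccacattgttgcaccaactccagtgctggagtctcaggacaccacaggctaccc
Aldoa, chr7:126799205-126799504, minus strand: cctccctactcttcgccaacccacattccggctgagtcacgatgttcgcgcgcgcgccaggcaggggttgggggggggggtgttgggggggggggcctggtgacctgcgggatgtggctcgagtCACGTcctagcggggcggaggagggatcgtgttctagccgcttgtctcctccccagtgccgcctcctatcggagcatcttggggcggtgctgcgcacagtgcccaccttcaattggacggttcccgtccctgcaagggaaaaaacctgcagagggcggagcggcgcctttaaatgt
Ldha, chr7:46845554-46845853, plus strand: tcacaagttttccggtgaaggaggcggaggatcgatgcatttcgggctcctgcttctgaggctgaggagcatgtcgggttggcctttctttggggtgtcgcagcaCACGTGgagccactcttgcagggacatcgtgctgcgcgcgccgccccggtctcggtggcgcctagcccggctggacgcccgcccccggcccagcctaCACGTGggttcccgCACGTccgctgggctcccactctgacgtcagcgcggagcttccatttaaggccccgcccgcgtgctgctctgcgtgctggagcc

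Values are in FPKM, which divides fragments by gene length and library size, so that levels of different genes can be set side by side. From the steps of 1 fragment in low values, the libraries were estimated to hold 13360000 to 15820000 fragments. The scarcest member, Slc2a1, then rests on about 422 fragments in its lowest library, and every other member on at least 2971. Counting error was thus small beside the spread between the VNS-TAC libraries, but less so beside that between the controls. In limma on log2(FPKM + 1), none of 11422 genes tested passed an adjusted p of 0.05 (0%), and 15.0% had an unadjusted p under 0.05. In 8.01% of genes all 3 VNS-TAC libraries lay above all 3 Ctrl-TAC libraries, and in 17.4% all lay below. The Ctrl-TAC libraries resembled each other, whereas libraries VNS-TAC 1 and VNS-TAC 3 stood apart. Array weights in limma were 0.246 and 0.247 for these and 2.82 for VNS-TAC 2, and with them 1016 genes passed, of which 0 were among the 10. The labels do not say that the libraries came from separate animals, and p-values then measure only the spread between these libraries.

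None of the 10 genes passed the adjusted threshold in limma. In deposited FPKM, Hk1 and Aldoa lay higher in all VNS-TAC libraries than in any Ctrl-TAC library, and Hk2 lay lower in all of them. The separation of Hk1 depends on how the libraries are scaled. The other 7 genes overlapped between the groups. Hk1 and Aldoa also had an unadjusted p under 0.05, 2 of 10 members, both in the direction that held for 3.79% of all genes. Lack of overlap was seen in 3 of 10 members, against 25.4% of all genes. The median log2 fold change of the 10 genes was 0.19, with 7 higher and 3 lower on average. That of all genes tested was -0.08, with 38.2% higher and 61.8% lower on average. Without VNS-TAC 1 the median of the 10 genes was 0.01, with 5 higher and 5 lower, and after quantile normalization it was 0.03, with 6 higher. With size factors it was 0.29, and without VNS-TAC 3 it was 0.24, with 9 higher in each case. All 10 genes passed the filter of a mean of 1 FPKM. Positions of the genes below are those of GENCODE M21 on GRCm38.

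**Figure D1:**
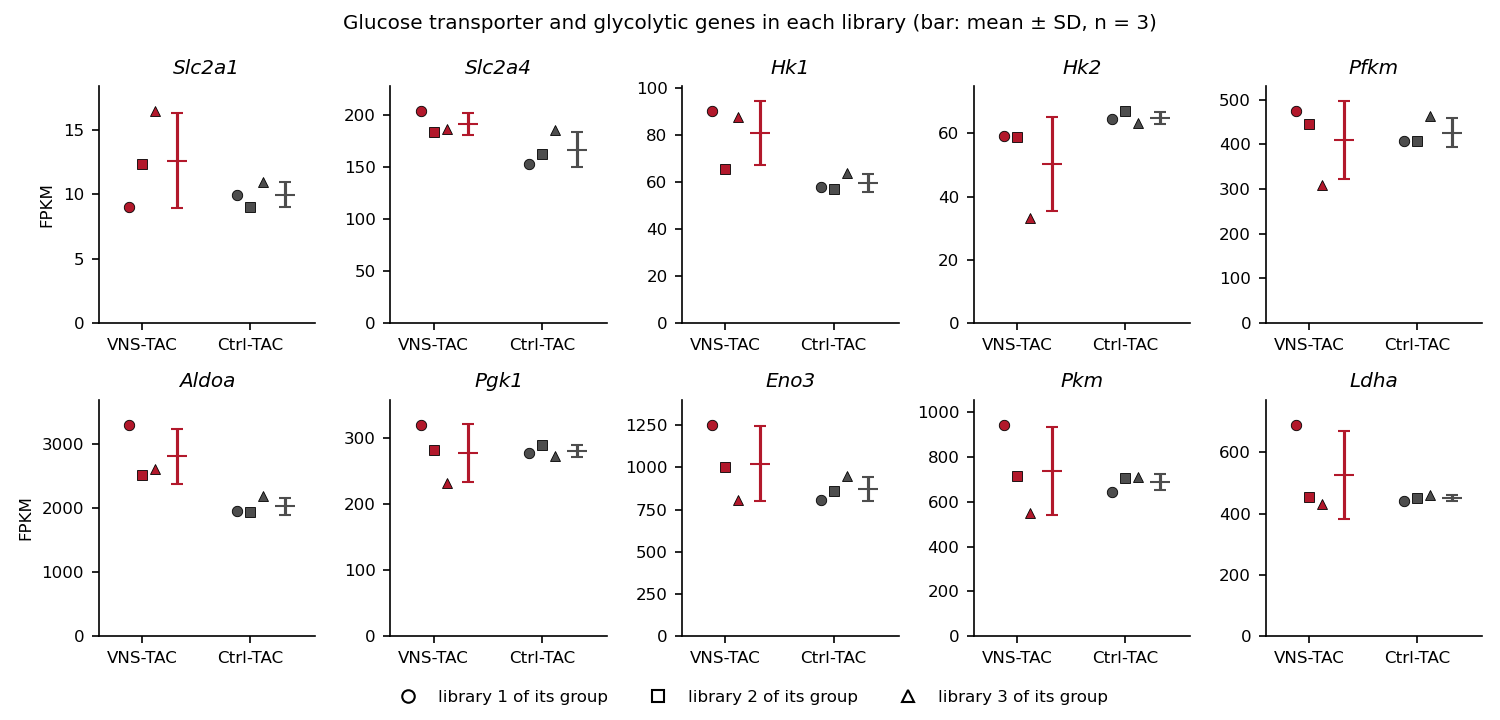
FPKM of the 10 genes (y axis, from 0) in each of the 3 VNS-TAC libraries (red, left) and 3 Ctrl-TAC libraries (grey, right), with the mean ± SD of each group beside the points. In deposited FPKM, Hk1 and Aldoa lie higher and Hk2 lower in VNS-TAC with no overlap, and VNS-TAC 1 is the highest library for 8 of the genes.

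Slc2a4 (NCBI gene ID 20528, chromosome 11, 69942286 to 69948216) encodes GLUT4, the insulin-responsive transporter, and made up most of the transporter RNA. It stood at 203.9, 184.4 and 187.2 FPKM in libraries VNS-TAC 1 to 3, against 152.8, 162.4 and 186.1 FPKM in Ctrl-TAC 1, 2 and 3. Ctrl-TAC 3 lay between the VNS-TAC values, so the groups overlapped by that library alone. The log2 fold change was 0.20 ± 0.13 (SE; limma adjusted p = 0.460). Fat cells also use GLUT4, and the 6 adipocyte markers summed to 339 to 599 FPKM in VNS-TAC, against 601 to 650.4 FPKM in Ctrl-TAC. Most of that sum was Fabp4, the only one of the 6 without overlap, while Adipoq was at 1.04, 3.28 and 0.16 FPKM in VNS-TAC, against 1.72, 0.99 and 5.92 FPKM in Ctrl-TAC. Their part in the Slc2a4 values was not tested.

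Slc2a1 (NCBI gene ID 20525, chromosome 4, 119108745 to 119137330) encodes GLUT1, the constitutive transporter that predominates in the fetal heart. Its level was 9.05, 12.4 and 16.5 FPKM in libraries VNS-TAC 1 to 3, against 9.99, 9.03 and 10.9 FPKM in Ctrl-TAC. VNS-TAC 1 lay within the controls while VNS-TAC 3 was the highest of the 6 libraries. Its log2 fold change of 0.28 ± 0.21 (SE; limma adjusted p = 0.528) was 0.08 without VNS-TAC 3 and 0.48 without VNS-TAC 1. Slc2a1 is also a gene of endothelial cells, and the summed level of 6 endothelial markers was 259 to 327 FPKM in VNS-TAC, against 323 to 365 FPKM in Ctrl-TAC, with 3 of the 6 lower with no overlap. What part these cells had in the Slc2a1 values was not tested. In bulk tissue, fewer cells of a type and less RNA per cell cannot be told apart.

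Within a library, Slc2a1 reached 0.0444, 0.0671 and 0.0879 times the FPKM of Slc2a4 in VNS-TAC 1, 2 and 3, against 0.0556 to 0.0654 times in Ctrl-TAC. The ratio thus ran both below and above the controls (exact permutation test, 2-sided, p = 0.7). Slc2a4 supplied 86.0% ± 4.14 of the summed transporter FPKM in VNS-TAC and 87.8% ± 0.70 in Ctrl-TAC (SD, n = 3 each).

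Hk1 (NCBI gene ID 15275, chromosome 10, 62268855 to 62379920) encodes hexokinase 1, the widely expressed form that binds mitochondria. It was at 90.1, 65.4 and 87.6 FPKM in libraries VNS-TAC 1 to 3, against 57.8, 57.1 and 64.0 FPKM in Ctrl-TAC. VNS-TAC 2 exceeded the highest control by little, and the other VNS-TAC libraries by far more. With each library scaled to the same sum of FPKM, VNS-TAC 2 would lie under Ctrl-TAC 3, so the groups would overlap. The means were 81.0 ± 13.6 FPKM in VNS-TAC and 59.6 ± 3.82 FPKM in Ctrl-TAC (SD, n = 3 each), a ratio of 1.36. On the log2 scale the fold change was 0.42 ± 0.15 (SE; 95% interval 0.07 to 0.78; limma unadjusted p = 0.0257, adjusted p = 0.275), and 0.22 with array weights.

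Hk2 (NCBI gene ID 15277, chromosome 6, 82725025 to 82774454) encodes hexokinase 2, the insulin-regulated form of muscle and adult heart. Its level was 59.2, 58.9 and 33.3 FPKM in libraries VNS-TAC 1 to 3, against 64.6, 67.0 and 63.3 FPKM in Ctrl-TAC. The 3 controls were close together, 2 VNS-TAC libraries lay just under them and VNS-TAC 3 far below. The log2 fold change was -0.41 ± 0.22 (SE; 95% interval -0.93 to 0.12; limma adjusted p = 0.409), and -0.14 without VNS-TAC 3 or -0.31 with size factors. Whether the groups stay apart for Hk2 with size factors was not tested.

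The pair of hexokinases thus lay on opposite sides of the controls, and their ratio within a library does not depend on how the library was scaled. Hk1 stood at 1.52, 1.11 and 2.63 times the FPKM of Hk2 in VNS-TAC 1, 2 and 3, against 0.895, 0.853 and 1.01 times in Ctrl-TAC. The groups did not overlap, which follows from Hk1 lying above and Hk2 below every control. The ratio and its test thus restate these separations and are no further support for them. The difference on the log2 scale was 0.84, with means of 0.72 ± 0.63 in VNS-TAC and -0.12 ± 0.13 in Ctrl-TAC (SD, n = 3 each). The exact permutation test gave p = 0.1, the smallest that 3 libraries against 3 allow, and 0.6 after Benjamini-Hochberg adjustment over the 6 ratios compared. Without VNS-TAC 3 the difference was 0.50, and with any other library left out it was at most 1.13.

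**Figure D2:**
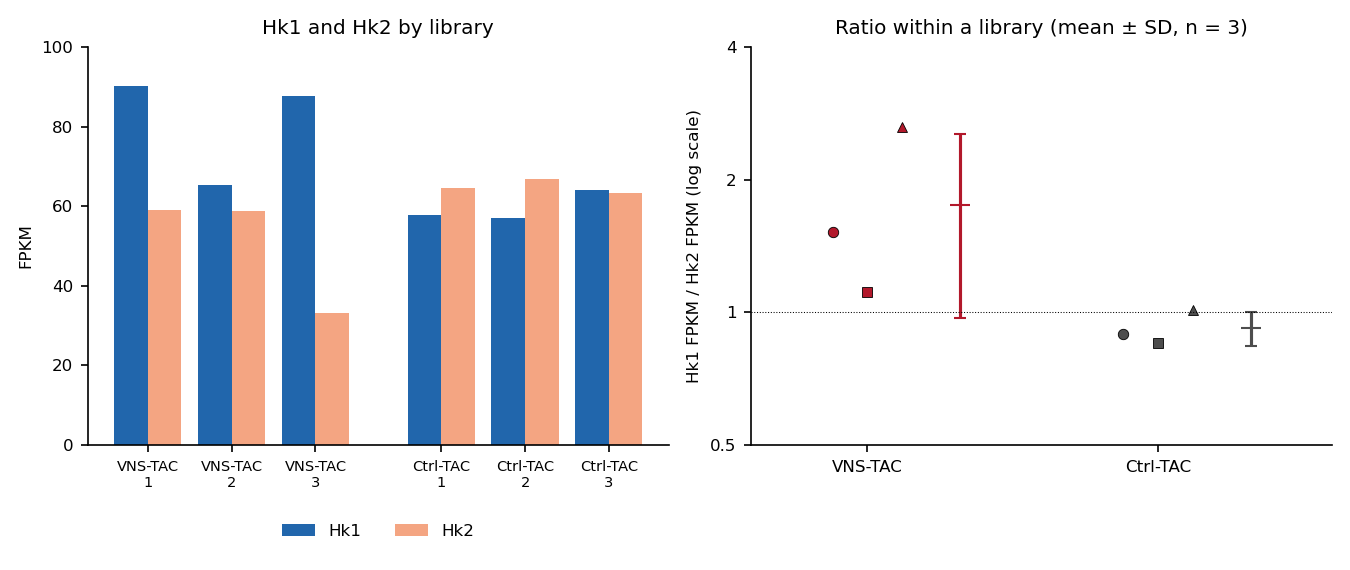
Left, FPKM of Hk1 and Hk2 (bars, y axis from 0) in each VNS-TAC and Ctrl-TAC library. Right, the FPKM of Hk1 over that of Hk2 within each library (log axis; bars are mean ± SD, n = 3), which is above 1.1 in every VNS-TAC library and between 0.853 and 1.01 in Ctrl-TAC.

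Red cells hold Hk1 as well. The summed level of 8 red cell markers was 1517, 321 and 38.5 FPKM in libraries VNS-TAC 1 to 3, against 193 to 592 FPKM in Ctrl-TAC. Hk1 was at 90.1, 65.4 and 87.6 FPKM in the same VNS-TAC libraries. The summed level of 6 smooth muscle markers was 144 to 181 FPKM in VNS-TAC, against 187 to 330.1 FPKM in Ctrl-TAC, and that of 6 fibroblast markers 277 to 434 FPKM, against 406 to 458 FPKM. Taken singly, 3 of the 6 smooth muscle markers were lower with no overlap. Of the fibroblast markers Lum was, at 21.2, 22.1 and 8.07 FPKM in VNS-TAC, against 40.1, 36.6 and 44.2 FPKM in Ctrl-TAC, and the most abundant, Dcn, overlapped, at 152, 241 and 388 FPKM, against 279, 285 and 257 FPKM. Their part in the hexokinase values was not tested.

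Pfkm (NCBI gene ID 18642, chromosome 15, 98092589 to 98132447) encodes the muscle subunit of phosphofructokinase, the enzyme that commits sugar to glycolysis. Its level was 474, 447 and 309.6 FPKM in libraries VNS-TAC 1 to 3, against 409, 407 and 465 FPKM in Ctrl-TAC. VNS-TAC 1 was the highest and VNS-TAC 3 the lowest of the 6 libraries. Its log2 fold change was -0.08 ± 0.19 (SE; limma adjusted p = 0.850), and -0.20 without VNS-TAC 1, 0.11 without VNS-TAC 3 or 0.02 with size factors. Pfkm supplied 84.5% ± 2.19 of the phosphofructokinase FPKM in VNS-TAC and 84.4% ± 0.97 in Ctrl-TAC (SD, n = 3 each), with Pfkl and Pfkp making up the rest.

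Aldoa (NCBI gene ID 11674, chromosome 7, 126795234 to 126800994) encodes aldolase A, which splits fructose bisphosphate into a pair of triose phosphates. It was the most abundant of the 10 genes and ranked 18 among all genes by mean FPKM. Its level was 3290, 2512 and 2603 FPKM in libraries VNS-TAC 1 to 3, against 1951, 1936 and 2177 FPKM in Ctrl-TAC. Every VNS-TAC library exceeded every control. On the log2 scale the fold change was 0.46 ± 0.17 (SE; 95% interval 0.07 to 0.85; limma unadjusted p = 0.0267, adjusted p = 0.277), and 0.26 after quantile normalization.

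Pgk1 (NCBI gene ID 18655, chromosome X, 106187100 to 106203699) encodes phosphoglycerate kinase, the first enzyme of the pathway to yield ATP. The gene stood at 319.5, 281 and 232 FPKM in libraries VNS-TAC 1 to 3, against 277, 289.9 and 273 FPKM in Ctrl-TAC. The VNS-TAC libraries lay on both sides of the controls. The log2 fold change was -0.02 ± 0.15 (SE; 95% interval -0.37 to 0.32; limma adjusted p = 0.948), and -0.13 without VNS-TAC 1, 0.10 without VNS-TAC 3 or 0.08 with size factors.

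Eno3 (NCBI gene ID 13808, chromosome 11, 70653125 to 70662513) encodes the muscle form of enolase, which makes phosphoenolpyruvate. It was at 1251, 1003 and 809 FPKM in libraries VNS-TAC 1 to 3, against 807, 862 and 949 FPKM in Ctrl-TAC. VNS-TAC 1 and 2 exceeded the controls while VNS-TAC 3 lay at their lower end. Its log2 fold change was 0.21 ± 0.19 (SE; limma adjusted p = 0.595), and 0.05 without VNS-TAC 1 or after quantile normalization, or 0.36 without VNS-TAC 3. Eno3 supplied 88.1% ± 1.39 of the enolase FPKM in VNS-TAC and 88.4% ± 1.02 in Ctrl-TAC (SD, n = 3 each), so the muscle form predominated in both groups. The 10 skeletal muscle markers summed to 3.63 to 6.59 FPKM in VNS-TAC and 3.98 to 4.78 FPKM in Ctrl-TAC, and 6 of them were under 1 FPKM in every library.

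Pkm (NCBI gene ID 18746, chromosome 9, 59656576 to 59679372) encodes the muscle pyruvate kinase, and the table does not separate its splice forms M1 and M2. Its level was 942, 715 and 551 FPKM in libraries VNS-TAC 1 to 3, against 645, 703 and 708 FPKM in Ctrl-TAC. The VNS-TAC values spanned the controls on both sides. On the log2 scale the fold change was 0.07 ± 0.20 (SE; limma adjusted p = 0.883), and -0.13 without VNS-TAC 1, -0.12 after quantile normalization or 0.26 without VNS-TAC 3.

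Ldha (NCBI gene ID 16828, chromosome 7, 46842274 to 46855627) encodes the lactate dehydrogenase subunit that predominates in skeletal muscle. Its level was 689, 455 and 432 FPKM in libraries VNS-TAC 1 to 3, against 443, 450.3 and 460.4 FPKM in Ctrl-TAC. Only VNS-TAC 1 stood clearly above the controls. The log2 fold change was 0.19 ± 0.19 (SE; limma adjusted p = 0.636), and -0.02 without VNS-TAC 1 or 0.31 without VNS-TAC 3. The heart subunit Ldhb was higher in every VNS-TAC library, at 1503, 1342 and 1416 FPKM, against 1192, 1195 and 1156 FPKM in Ctrl-TAC (limma adjusted p = 0.374). Ldha stood at 0.458, 0.339 and 0.305 times the level of Ldhb in VNS-TAC, against 0.371, 0.377 and 0.398 times in Ctrl-TAC, with a difference of -0.08 on the log2 scale (exact permutation test, 2-sided, p = 0.7).

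**Figure D3:**
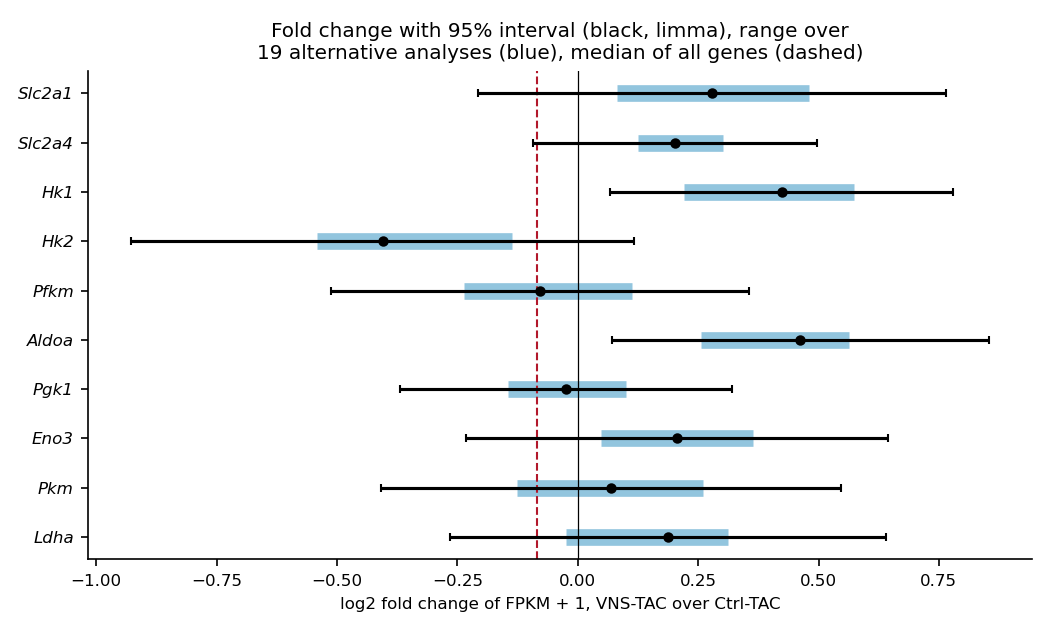
Log2 fold change of FPKM + 1 in VNS-TAC over Ctrl-TAC (x axis) for each of the 10 genes, with the 95% interval from limma as black bars and the lowest to highest value over 19 alternative analyses in blue. The intervals of Hk1 and Aldoa lie above 0, and Pfkm, Pgk1, Pkm and Ldha change sign in some alternatives.

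The 10 genes differed more among the VNS-TAC libraries than among the controls. The coefficient of variation was larger in VNS-TAC for 9 of 10 genes, with a median of 21.6% in VNS-TAC and 6.6% in Ctrl-TAC. Over all genes tested it was larger in VNS-TAC for 82.0%, with medians of 20.3% in VNS-TAC and 8.9% in Ctrl-TAC, so the members varied much as other genes did. In deposited FPKM, VNS-TAC 1 was the highest of the 6 libraries for 8 members, and VNS-TAC 3 the lowest for 5. Slc2a1 went the other way, with its highest value in VNS-TAC 3, and Hk2 had its highest in Ctrl-TAC 2. The FPKM of all genes summed to 585330 in VNS-TAC 1 and to 541271 or less in every other library. With each library scaled to the same sum, VNS-TAC 1 would not be the highest for Slc2a4, Hk1, Pfkm or Pgk1. The summed level of 9 cardiomyocyte markers was also highest in VNS-TAC 1 and lowest in VNS-TAC 3, at 66405, 56216 and 45241 FPKM in libraries VNS-TAC 1 to 3, against 49406 to 50277 FPKM in Ctrl-TAC. Taken singly, 4 of the 9 markers (Myl2, Myl3, Tnni3 and Actc1) had that order over the VNS-TAC libraries and 2 (Tnnt2 and Pln) the opposite one. The part of the amount of cardiomyocyte RNA in the members' values was not tested. The 7 neutrophil markers summed to 46.8 to 101 FPKM in VNS-TAC and 2.49 to 6.33 FPKM in Ctrl-TAC, with 6 of the 7 higher with no overlap, and the 6 macrophage markers to 116 to 228 FPKM in VNS-TAC and 164 to 174 FPKM in Ctrl-TAC, and their part was not tested either.

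The genes whose log2 profile over the 6 libraries lay nearest to each of the 3 members with the smallest p included Tmem11 and Ly6a for Hk1, Fam110b, Nkx2-5 and Popdc2 for Aldoa, and Hmgb3, Egflam and Msrb2 for Hk2. Their root mean square difference from the member was 0.0593 and 0.060 for Hk1, 0.0273 to 0.0558 for Aldoa and 0.043 to 0.052 for Hk2 on the log2 scale. Nkx2-5, a transcription factor of cardiomyocytes, stood at 87.0, 66.7 and 72.0 FPKM in libraries VNS-TAC 1 to 3, against 50.4, 53.3 and 54.5 FPKM in Ctrl-TAC.

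Summed over the isozymes of each step, FPKM was higher in all VNS-TAC libraries than in any control at 5 of 12 steps, namely transport, glucose phosphate isomerase, aldolase, glyceraldehyde phosphate dehydrogenase and lactate dehydrogenase. No step was lower in all of them, and hexokinase, phosphofructokinase, triose phosphate isomerase, phosphoglycerate kinase, phosphoglycerate mutase, enolase and pyruvate kinase overlapped. Among all single genes tested, 8.01% lay higher and 17.4% lower with no overlap. The step sums follow the scaling of the libraries and were not tested. With each library scaled to the same sum of FPKM, transport, glucose phosphate isomerase and glyceraldehyde phosphate dehydrogenase would overlap too. The aldolase sum was almost all Aldoa. The isomerase Gpi1 was at 393, 331 and 422 FPKM in libraries VNS-TAC 1 to 3, against 286, 276 and 326 FPKM in Ctrl-TAC (limma adjusted p = 0.305). Of 22 other glycolytic enzyme genes 13 were tested, and 4 were higher and 1 lower with no overlap, against 8.01% higher and 17.4% lower over all genes.

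Among the other genes of the pathway, the smallest p-values belonged to Pdk4 and Txnip. Over the 9 pathway lists, 98 of 116 genes were tested and 0 passed the adjusted threshold. Of the 98, 17 had an unadjusted p under 0.05 (15.0% of all genes), 11 were higher with no overlap (8.01% of all genes) and 18 lower with no overlap (17.4% of all genes). These shares are close to those of all genes. The median log2 fold change of the 98 was -0.07.

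Pdk4 encodes a kinase that shuts off pyruvate dehydrogenase and is induced when fatty acids are burned. It was at 41.5, 93.6 and 64.9 FPKM in libraries VNS-TAC 1 to 3, against 159, 193 and 210.4 FPKM in Ctrl-TAC. Every VNS-TAC value was well below every control, with a log2 fold change of -1.54 ± 0.28 (SE; limma unadjusted p = 7.38e-04, adjusted p = 0.179). It ran between -1.82 and -1.05 over the alternatives. Pdk2, the kinase form abundant in heart, lay the other way, at 286, 287 and 349.9 FPKM in VNS-TAC, against 215, 224 and 252 FPKM in Ctrl-TAC (limma adjusted p = 0.264). The pyruvate dehydrogenase subunit genes Dld and Dlat overlapped between the groups, at log2 fold changes of -0.34 and -0.28. Dld was at -0.17 without VNS-TAC 1 and -0.07 with the GC trend removed, and Dlat at -0.11 without VNS-TAC 3.

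Txnip encodes a protein that withdraws glucose transporters from the cell surface and is itself induced by glucose. Its level was 179, 236 and 230.4 FPKM in libraries VNS-TAC 1 to 3, against 377, 335 and 437 FPKM in Ctrl-TAC. The groups lay far apart, with a log2 fold change of -0.83 ± 0.16 (SE; limma unadjusted p = 0.00125, adjusted p = 0.190). Txnip shares 606 of its 3123 exon bases with Gm15441 on the opposite strand, so its value is less certain where counting ignored strand. Others in the list of insulin signalling and GLUT4 traffic that were lower with no overlap included Lnpep, Prkaa2 and Rab10. Lnpep, an aminopeptidase that travels with GLUT4, was at 3.12 ± 1.15 FPKM in VNS-TAC and 5.38 ± 0.345 FPKM in Ctrl-TAC. The energy sensor gene Prkaa2 was at 14.6 ± 2.59 and 19.6 ± 1.97 FPKM, and Rab10 at 36.8 ± 6.44 and 46.4 ± 2.65 FPKM (SD, n = 3 each). In that list of 16 genes, 1 was higher and 5 were lower with no overlap, against 8.01% higher and 17.4% lower over all genes.

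Among carriers of lactate and pyruvate, Bsg, the chaperone of the lactate transporters, was at 1347, 1278 and 1239 FPKM in VNS-TAC, against 991, 1050.2 and 939 FPKM in Ctrl-TAC (log2 fold change 0.38 ± 0.13, SE; limma adjusted p = 0.268). Mpc1, a subunit of the mitochondrial pyruvate carrier, was at 559 ± 19.5 FPKM in VNS-TAC and 458 ± 6.89 FPKM in Ctrl-TAC (SD, n = 3 each) with no overlap. Its partner Mpc2 overlapped, as did Slc16a3, one of the lactate transporters, which was at 2.64 FPKM or less in every library. Of the 6 genes tested, 2 were higher and 0 lower with no overlap, against 8.01% higher and 17.4% lower over all genes.

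Genes of glycogen metabolism were lower in 12 and higher in 5 of 17 on average, against 61.8% lower and 38.2% higher over all genes. Their median log2 fold change was -0.15, and 1 was higher and 4 were lower with no overlap, against 8.01% higher and 17.4% lower over all genes. Ppp1r3c, which targets a phosphatase to glycogen, was at 45.8 ± 13.4 FPKM in VNS-TAC and 73.5 ± 5.75 FPKM in Ctrl-TAC, the laforin gene Epm2a at 6.09 ± 1.22 and 9.31 ± 1.505 FPKM, and Phkb, a subunit of phosphorylase kinase, at 8.75 ± 2.90 and 13.9 ± 0.81 FPKM (SD, n = 3 each). The glycogen precursor gene Ugp2 overlapped. Of 14 genes of the pentose phosphate and hexosamine branches, 2 were higher (G6pdx and Tkt) and 3 lower with no overlap, against 8.01% higher and 17.4% lower over all genes. Rpe, a pentose phosphate epimerase, was at 1.44, 2.20 and 2.33 FPKM in VNS-TAC, against 4.07, 3.77 and 3 FPKM in Ctrl-TAC. Gfpt1, the entry enzyme of hexosamine synthesis, was at 3.45 ± 0.77 and 5.09 ± 0.50 FPKM, Gnpnat1 of the same branch at 3.95 ± 0.39 and 5.06 ± 0.65 FPKM, and Pgls of the pentose branch, which overlapped, at 69.0 ± 16.2 and 52.5 ± 1.74 FPKM in VNS-TAC and Ctrl-TAC (SD, n = 3 each). Gnpnat1 shares 3878 of its 4735 exon bases with Styx on the opposite strand, so its value is uncertain where counting ignored strand.

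Of the remaining transporters, Slc2a8 was at 10.3, 12.9 and 22.0 FPKM in VNS-TAC, against 8.98, 8.40 and 11.1 FPKM in Ctrl-TAC, overlapping, and its log2 fold change was 0.56, or 0.27 without VNS-TAC 3. Slc2a10 and Slc2a12 were at 2.32 FPKM or less in every library. The 5 tested genes of enzymes that make or break down the activator of phosphofructokinase all overlapped. Pfkfb2, the heart form, was at 11.1, 34.7 and 22.7 FPKM in VNS-TAC, against 33.1, 36.8 and 26.5 FPKM in Ctrl-TAC, and its log2 fold change of -0.60 was -0.17 without VNS-TAC 1 and -0.95 without VNS-TAC 2. Pfkfb3, the inducible form, was at 1.88, 2.87 and 11.7 FPKM, against 2.78, 2.14 and 3.08 FPKM, with a log2 fold change of 0.51, or -0.13 without VNS-TAC 3 and 0.94 without VNS-TAC 1. Pfkfb1 had a log2 fold change of 0.38, or 0.16 without Ctrl-TAC 1 and 0.60 without Ctrl-TAC 2. That of Tigar was 0.23, or 0.12 without VNS-TAC 3 and 0.35 without VNS-TAC 1.

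Among transcription factors that act on glycolytic genes, Hif1a, the oxygen-regulated subunit of the factor that binds the ACGTG core printed above, was at 6.81, 12.7 and 14.3 FPKM in libraries VNS-TAC 1 to 3, against 18.8, 19.9 and 15.1 FPKM in Ctrl-TAC. Each VNS-TAC library was below each control, VNS-TAC 3 by little (log2 fold change -0.68 ± 0.26, SE; limma unadjusted p = 0.0328, adjusted p = 0.295), and the value was -0.38 without VNS-TAC 1. HIF is controlled mainly by degradation of this protein, which RNA does not measure. Myc, another activator of glycolytic genes, overlapped at 3.07, 2.11 and 5.23 FPKM in VNS-TAC, against 5.81, 5.06 and 6.32 FPKM in Ctrl-TAC. Mef2c was at 7.57 ± 1.96 and 10.2 ± 0.35 FPKM with no overlap, and Mef2a overlapped at 23.1 ± 6.41 and 30.9 ± 5.49 FPKM in VNS-TAC and Ctrl-TAC (SD, n = 3 each). Of the 12 genes, 0 were higher and 2 lower with no overlap, against 8.01% higher and 17.4% lower over all genes.

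**Figure D4:**
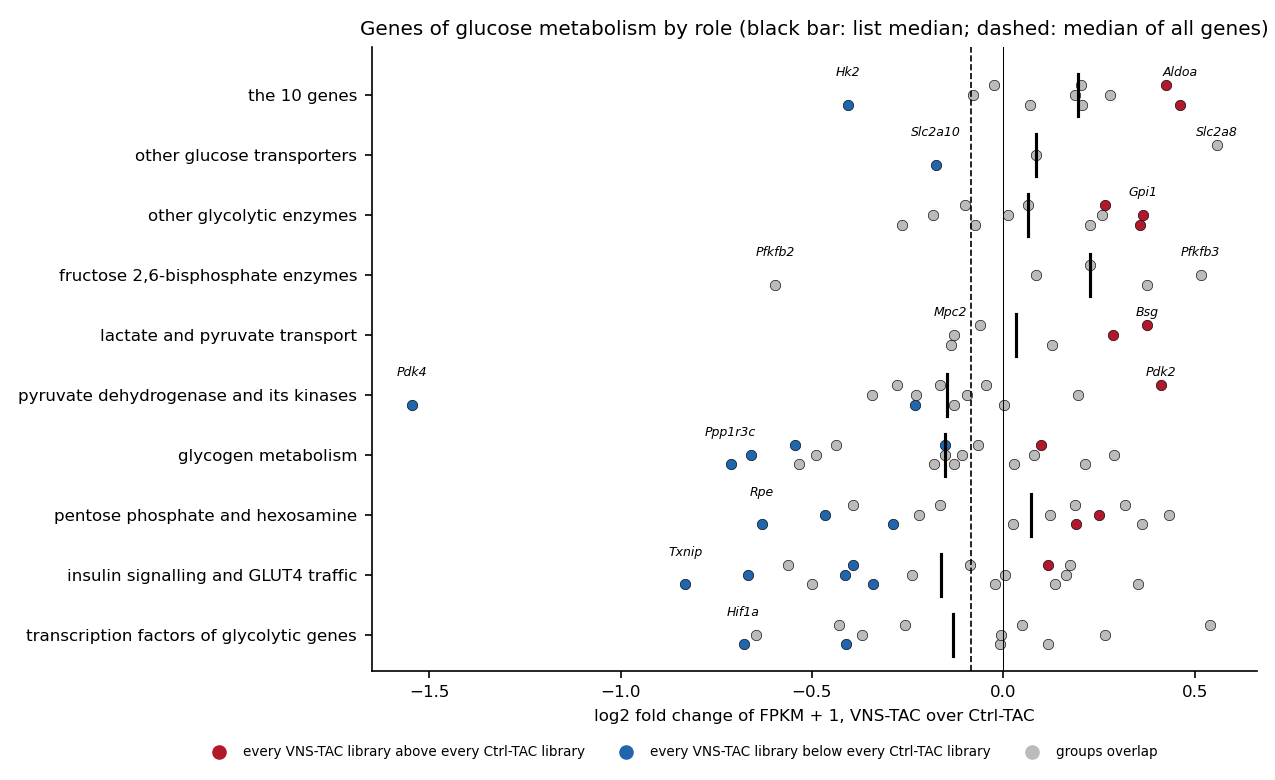
Log2 fold change of FPKM + 1 in VNS-TAC over Ctrl-TAC (x axis) of the tested genes, by role, without 2 of the other glycolytic enzymes, with red or blue points where every VNS-TAC library lay above or below every Ctrl-TAC library. Pdk4 at -1.54 and Txnip at -0.83 lie far to the left, and the median of all genes is -0.08 (dashed line).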

How the data were processed

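Messenger RNA of 6 mouse heart libraries had been captured on oligo-dT beads, per the labels' protocols. The authors deposited 1 table of FPKM values to 2 decimals, per the file headers, with NCBI gene IDs. The submitters' processing notes list HISAT, featureCounts 1.5.0-p3, DESeq 1.8.3 and the build GRCm38, with no role for each. For annotation, strand setting and multiply mapped reads, nothing is given in the sources used here. Reads of near-identical processed copies, which Aldoa, Pgk1, Ldha and Gapdh have, and of overlapping genes, such as Pkm with 767 shared exon bases and Pfkm with 341, could therefore be split or shared. Groups came from the sample titles, since a treatment tag reads VNS in all samples. The VNS-TAC columns carry the numbers 1 to 3 and the labelled libraries 4 to 6, so the columns stand for the group and keep the table's numbers.

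Symbols came from NCBI RefSeq (GRCm38.p6) for 17890 IDs and GENCODE M21 for 15, and 114 had none. Depth was estimated from the steps of 1 fragment, with a periodicity of 0.273 to 0.339, and entered no test. The 11422 genes averaging 1 FPKM or more were put on the scale log2(FPKM + 1), on which changes of low genes come out too small, and tested with limma 3.58.1 in R 4.3.3 (intensity trend, 4 residual degrees of freedom, Benjamini-Hochberg adjustment over all genes, 2-sided) after a test on simulated data. Ratios of 2 genes within a library were compared by an exact permutation test over 20 assignments. Tables and figures used Python 3.11.15, pandas 2.3.3 and matplotlib 3.10.9. Members and lists were chosen with earlier results of these data known. Besides the members, up to 4 tested genes of each list with the smallest unadjusted p are named, with markers where a level needs them, and some genes that this rule covers are not reported here. Alternatives were other pseudocounts, filters, scalings and limma settings, removal of GC and length trends (for 11319 of the genes), and each library left out in turn.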

Additional observations from a re-analysis of the deposited data

How the results depend on the processing

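The count of genes passing the adjusted threshold in limma was 0 in the analysis reported, 1 when only genes averaging 5 FPKM or more were tested, 2 each with size factors, quantile normalization or the GC trend removed, and 1016 with array weights. With 1 library left out it was 0 to 3, with 3 both without VNS-TAC 3 and without Ctrl-TAC 1. Of the 10 genes none passed in any of the 19 alternatives, the lowest adjusted p being 0.0586 for Aldoa with array weights. Of the other pathway genes, 10 passed with array weights and 0 in every other alternative. Slc2a1, Slc2a4, Hk1, Aldoa and Eno3 stayed higher and Hk2 lower in all 19. The log2 fold change turned positive for Pfkm (0.022 with size factors, 0.063 with array weights, -0.195 to 0.112 with 1 library left out), Pgk1 (0.077 with size factors, 0.037 with the GC trend removed, -0.131 to 0.1 with 1 library left out), Mpc2 (0.034 with array weights, 0.086 with the GC trend removed, -0.285 to 0.133 with 1 library left out), Slc2a10 (0.01 after quantile normalization) and Gnpnat1 (0.021 with the GC trend removed). It turned negative for Pkm (-0.123 after quantile normalization, -0.008 with equal sums of FPKM, -0.126 to 0.26 with 1 library left out) and, with 1 library left out, for Ldha (-0.024 to 0.312) and Pfkfb3 (-0.127 to 0.942). Log2 differences of ratios that changed sign with 1 library left out ran over -0.132 to 0.361 for Slc2a1 to Slc2a4, -0.247 to 0.046 for Ldha to Ldhb, -0.16 to 0.037 for Eno3 to Eno1 and -0.073 to 0.154 for Pfkm to Pfkl and Pfkp. Of the named genes, 9 passed with array weights, namely Bsg, Pdk4, Pdk2, Ppp1r3c, Rpe, Gfpt1, Txnip, Hif1a and Myc, with adjusted p of 0.012 to 0.0441. For these shifts the cause was not tested. The estimated depth limits only the scarcest genes. No paired analysis was possible because the table numbers its VNS-TAC columns 1 to 3 and the labels number those libraries 4 to 6, so no column number ties a VNS-TAC library to a Ctrl-TAC library. With 3 libraries a group, the exact test of a ratio cannot go below 0.1.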
